A study of Mus musculus with 8 samples.

Results

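The genes described here encode proteins of the cytosolic ribosome, the particle that translates messenger RNA outside mitochondria. They were taken by name: every gene whose symbol is that of a numbered Rpl or Rps protein, together with Rpsa and the Rplp stalk genes, leaving out the Rps6k kinases, Rpl10l and the mitochondrial Mrp genes. The platform's probe annotation names a probe set for 24 of them, among 15267 genes tested, and a RefSeq gene table holds 83 protein-coding genes that match the same rule. The 24 comprise 7 proteins of the small subunit, 12 of the large subunit and 5 paralogues, which are close relatives of a core protein encoded elsewhere in the genome.

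The cells were E14Tg2a, a line of mouse embryonic stem (ES) cells, transfected with small interfering RNAs (siRNAs) against Tet1, a dioxygenase that oxidises methylated cytosine in DNA. The 8 Affymetrix arrays form 4 groups of 2. Cells given siRNA 1 against Tet1 were harvested 96 h after transfection, those given siRNA 2 against Tet1 also at 96 h, and a further pair given siRNA 1 at 48 h. Cells of the control group received a duplex directed at firefly luciferase and were harvested at 96 h. The knockdown is transient, all groups received a duplex, and a control at 48 h was not analysed here. Tet1 has no named probe set in that annotation, and its own level was not analysed here.

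A ribosome is built in the nucleolus, where ribosomal proteins join ribosomal RNA with the help of many assembly factors, and core ribosomal proteins are made in nearly equal amounts in every dividing cell. Their messenger RNAs typically begin with a run of pyrimidines, the TOP tract, through which the kinase mTOR and the protein Larp1 control translation. When assembly is disturbed, free Rpl5, Rpl11 and Rpl23 bind Mdm2 and so raise p53, and certain paralogues replace their core partner in the ribosomes of particular tissues such as testis and muscle.

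RefSeq start regions on the mouse assembly GRCm38.p6 were matched for 19 of the 24 genes, in 22 entries because Rpl22, Rps27l and Rpl3l have more than 1. Rpl8, Rpl17, Rpl21, Rps4l and Rps14 were not matched. The TOP tract lies at the start of the transcript. The 30 bases around the annotated start, 15 before and 15 from it on, are shown for a selection of the members whose signal differed between groups. Each is read 5′ to 3′ on the gene's strand, and capitals mark its longest run of C and T.
Rpl15: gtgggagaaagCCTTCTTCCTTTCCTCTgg
Rpl14: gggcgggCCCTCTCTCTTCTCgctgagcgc
Rps15a: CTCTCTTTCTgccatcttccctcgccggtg
Rps6: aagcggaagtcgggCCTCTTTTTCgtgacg
Rpl39l: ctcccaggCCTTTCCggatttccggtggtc
Rpl22: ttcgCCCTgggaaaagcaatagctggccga
Rpl23: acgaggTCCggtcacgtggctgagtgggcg
Rps3: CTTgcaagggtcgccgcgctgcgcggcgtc
Rpl7l1: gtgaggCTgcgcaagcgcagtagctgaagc
The longest run was 17 bases in Rpl15 (chr14:18270972-18271001, minus strand), 14 in Rpl14 (chr9:120571502-120571531, plus), 10 in Rps15a (chr7:118116133-118116162, minus) and 10 in Rps6 (chr4:86857353-86857382, minus). It was 7 bases in Rpl39l (chr16:10170213-10170242, plus), 4 in this entry of Rpl22 (chr4:152325711-152325740, plus), 3 in Rpl23 (chr11:97782425-97782454, minus), 3 in Rps3 (chr7:99483695-99483724, minus) and 2 in Rpl7l1 (chr17:46782642-46782671, minus). A run of 8 or more C or T was present in the window of 10 of the 22 entries (45.5%), against 12.2% of 15474 entries of all tested genes. Rpl31, Rps9, Rps15 and Rpsa, whose signal also differed between groups, are not shown and had longest runs of 10, 9, 3 and 5 bases. The short runs of Rps3 and Rpl23 say only that these windows, set by the annotated start, do not hold a long one. Among the runs of 8 or more, those of Rps15a, Rpl31, Rpl4 and Rps27l lie wholly before the annotated start. So do the shorter runs marked above for Rpl39l, Rpl22, Rpl23, Rps3 and Rpl7l1. A run in a window is therefore not always part of the annotated transcript.

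Upstream of the start, the letters CCGGAAG, the core bound by ETS factors such as Gabpa, were searched on both strands from 250 bases before the annotated start to 50 after it. They occurred in 8 of the 22 entries (36.4%), against 13.3% of all entries. The YY1 letters AAGATGGC occurred in 4 (18.2%, against 3.42%) and the E-box CACGTG, read by Myc and Max, in 3 (13.6%, against 9.01%). CCGGAAG and AAGATGGC can share the letters AAG. The 250 bases upstream are shown for Rpl39l (chr16:10169978-10170227, plus strand) and Rpl15 (chr14:18270987-18271236, minus strand), the called members with both Tet1 siRNAs whose entries hold the letters, with CCGGAAG in capitals.
Rpl39l: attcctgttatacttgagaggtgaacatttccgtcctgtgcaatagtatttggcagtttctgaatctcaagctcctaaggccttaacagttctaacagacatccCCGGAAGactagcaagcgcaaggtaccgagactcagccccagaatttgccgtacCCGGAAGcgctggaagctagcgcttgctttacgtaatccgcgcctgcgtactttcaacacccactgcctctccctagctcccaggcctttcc
Rpl15: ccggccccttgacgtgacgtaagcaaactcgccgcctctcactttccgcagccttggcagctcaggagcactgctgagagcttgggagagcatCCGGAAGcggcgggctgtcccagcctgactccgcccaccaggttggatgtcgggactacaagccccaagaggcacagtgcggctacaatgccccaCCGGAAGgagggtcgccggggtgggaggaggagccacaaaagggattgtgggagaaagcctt
Both regions hold the letters 2 times, and the entries of the other members that rose, Rpl22 and Rpl7l1, do not hold them. A match describes the sequence and does not show that a factor binds there.

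Values are log2 RMA signals per probe set. RMA brings the probe signals of all arrays to the same distribution, so a shift in total RNA per cell is not visible. In a culture, fewer cells of a type and less RNA per cell cannot be told apart. The values per probe set can still differ in distribution between arrays. Array medians lay between 6.68 and 6.72, and arrays correlated across genes with r from 0.997 to 0.998 within groups (4 pairs) and from 0.983 to 0.997 between groups (24 pairs). The mean log2 signal of 10 ES cell markers was high on every array, at 11.91 and 11.95 for siRNA 1 at 96 h, 12.07 and 12.10 for siRNA 2, 12.42 and 12.45 for siRNA 1 at 48 h, and 12.31 and 12.33 for the control. With both siRNAs 5 of the 10 fell and 1 rose against the control of 96 h, Nanog falling by 1.08 and Esrrb by 1.11. That is 60% called at an adjusted p under 0.05 (limma), against 24.2% of all genes. The calls of Fgf4 (-0.27), Sox2 (-0.21) and Tdgf1 (0.30) were lost when certain single arrays were omitted. Transcripts of lung epithelium were present on the 96 h arrays. The mean of 13 lung markers was 7.73 and 7.53 for siRNA 1 at 96 h, 7.91 and 7.31 for siRNA 2, 5.33 and 5.32 for siRNA 1 at 48 h, and 7.82 and 7.82 for the control. Scgb1a1, the secretoglobin of airway club cells, stood between 11.95 and 12.83 on all 6 arrays of 96 h, against 3.71 and 4.03 on the arrays of 48 h.

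On every array 10 of the 24 members gave signals above 13 on average: the small-subunit genes Rps9, Rps14 and Rps15, the large-subunit genes Rpl4, Rpl8, Rpl13a, Rpl26 and Rplp2, and the paralogues Rps27l and Rps4l. Rpl26 ranged from 14.91 to 15.02 and Rpl4, whose protein lines the exit tunnel, from 14.77 to 14.90. A second set of 9 members lay between 9 and 13, and 5 lay at 9 or below. Signals of different probe sets do not rank the transcripts, since each set binds with its own strength.
The dimmest member was Rpsa, the gene of the laminin receptor precursor, which every cell uses for its small subunit. Its signal was 3.58 and 3.60 for siRNA 1 at 96 h, 3.89 and 3.88 for siRNA 2, 3.44 and 3.55 for siRNA 1 at 48 h, and 3.85 and 3.84 for the control. This lay near the 3.18 to 3.71 of 3 probe sets for trp, a bacterial transcript, so the probe set gave little or no signal above that of an absent transcript. Rpl3l, the paralogue of Rpl3 known from heart and skeletal muscle, was also dim, from 4.0 to 4.6. Ribosomal protein genes have many near-identical processed pseudogenes and copies, and which of them a probe set also binds was not tested.

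**Figure D1:**
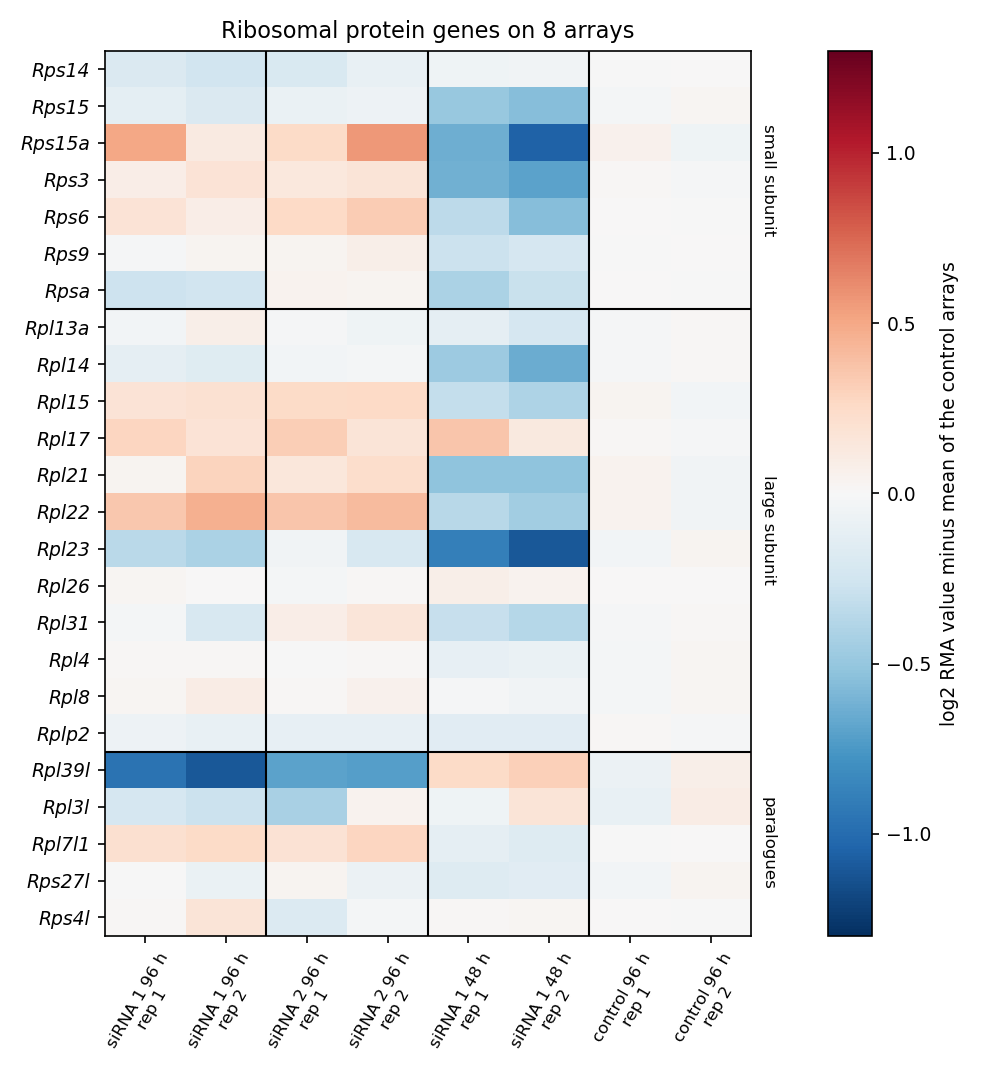
Log2 RMA value of each of the 24 ribosomal protein genes on each of the 8 arrays, as colour, minus the mean of the control arrays at 96 h (white is equal, red higher, blue lower). Columns are arrays by group and replicate (rep), and rows are genes by subunit. Rpl39l is blue on the 4 siRNA arrays of 96 h and pale red on the arrays of 48 h, while Rpl23, Rps3 and Rps15a are bluest on the arrays of 48 h.

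Replicate arrays of a group differed by a median of 0.063 over the members for siRNA 1 at 96 h, 0.052 for siRNA 2, 0.066 for siRNA 1 at 48 h and 0.036 for the control, with largest gaps of 0.39, 0.46, 0.42 and 0.20. In the heatmap of members by array, the arrays of 48 h stand apart for the mid-level members and, among the 10 bright members, for Rps15 and Rps9.

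The first comparison asks what siRNAs directed at Tet1 did by 96 h. Of the 24 members, 3 were higher with both Tet1 siRNAs than with the control siRNA, Rpl22, Rpl7l1 and Rpl15, and 1 was lower, Rpl39l, while 20 did not pass (limma, Benjamini-Hochberg adjusted p under 0.05, 4 arrays against 2). That is 16.7% of members, and 24.2% of all genes were called in this comparison, 12% higher and 12.2% lower, so the share among members was no higher than among genes at large. Their median log2 difference was 0.0036, against -0.021 over all genes. By subunit, 0 of 7 small-subunit genes passed (3 at an unadjusted p under 0.05), 2 of 12 large-subunit genes rose, and of the 5 paralogues 1 rose and 1 fell. Of all 15267 genes, 5520 had an unadjusted p under 0.05.

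Rpl39l, the paralogue of Rpl39 best known from male germ cells, changed most. It had log2 signals of 10.94 and 10.80 for siRNA 1 at 96 h, 11.20 and 11.19 for siRNA 2 at 96 h, 12.16 and 12.21 for siRNA 1 at 48 h, and 11.83 and 11.98 for the control. All 4 siRNA arrays of 96 h lay below both control arrays, and the arrays of 48 h lay above them. With both siRNAs Rpl39l fell by 0.87 ± 0.075 on the log2 scale (SE), a 1.83-fold decrease (adjusted p = 0.000151, limma). The call was kept whichever single array was left out. Rpl39 itself, its core partner, was not analysed here.

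Rpl22, an RNA-binding protein of the large subunit, had 10.88 and 10.99 for siRNA 1 at 96 h, 10.88 and 10.94 for siRNA 2, 10.16 and 10.07 for siRNA 1 at 48 h, and 10.57 and 10.48 for the control. The siRNA arrays of 96 h were the highest, the control arrays lay between, and the arrays of 48 h were the lowest, without overlap. The rise at 96 h was 0.40 ± 0.069 (1.32-fold, adjusted p = 0.00475, limma), and it too passed without any single array.

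Rpl15 and Rpl7l1 rose by less. Rpl15, a core protein of the large subunit, had 12.75 and 12.77 for siRNA 1 at 96 h, 12.82 and 12.83 for siRNA 2, 12.26 and 12.17 for siRNA 1 at 48 h, and 12.60 and 12.54 for the control. Rpl7l1, a paralogue of Rpl7 found in the nucleolus during assembly of the large subunit, had 10.69 and 10.73 for siRNA 1 at 96 h, 10.67 and 10.76 for siRNA 2, 10.37 and 10.31 for siRNA 1 at 48 h, and 10.48 and 10.49 for the control. In both genes every siRNA array of 96 h stood above the control arrays. The rises were 0.22 ± 0.063 (1.16-fold, adjusted p = 0.0371, limma) for Rpl15 and 0.23 ± 0.063 (1.17-fold, adjusted p = 0.0306, limma) for Rpl7l1. Both calls were lost when any of several single arrays was omitted. For Rpl15 the adjusted p was 0.0707 or 0.0852 when siRNA 1 replicate 1 or 2 was left out, 0.0701 or 0.0781 when it was siRNA 2 replicate 1 or 2, and 0.0969 or 0.204 when it was control replicate 1 or 2. For Rpl7l1 it was 0.0537 or 0.0774 on omitting siRNA 1 replicate 1 or 2, 0.0768 on omitting siRNA 2 replicate 2, and 0.131 or 0.126 on omitting control replicate 1 or 2. With the mean of the lung markers as a covariate, the adjusted p was 0.0846 for Rpl15 and 0.0870 for Rpl7l1.

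Among the members that did not pass, Rpl23 had a difference of -0.26 ± 0.083 (adjusted p = 0.0574, and 0.0499 without siRNA 2 replicate 1), Rps14 one of -0.18 ± 0.063 (0.0695), Rps6 one of 0.21 ± 0.078 (0.0848) and Rpl17 one of 0.24 ± 0.087 (0.0867; limma throughout). The other members that did not pass had differences from -0.22 for Rpl3l to 0.36 for Rps15a, a dim gene with an SE of 0.15. Rps27l, a paralogue of Rps27 that p53 is known to induce, had a difference of -0.031 ± 0.066 (adjusted p = 0.774), with signals of 14.00, 13.93, 14.04 and 13.94 on the siRNA arrays of 96 h against 13.98 and 14.04 on the control arrays. Its groups overlapped.

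**Figure D2:**
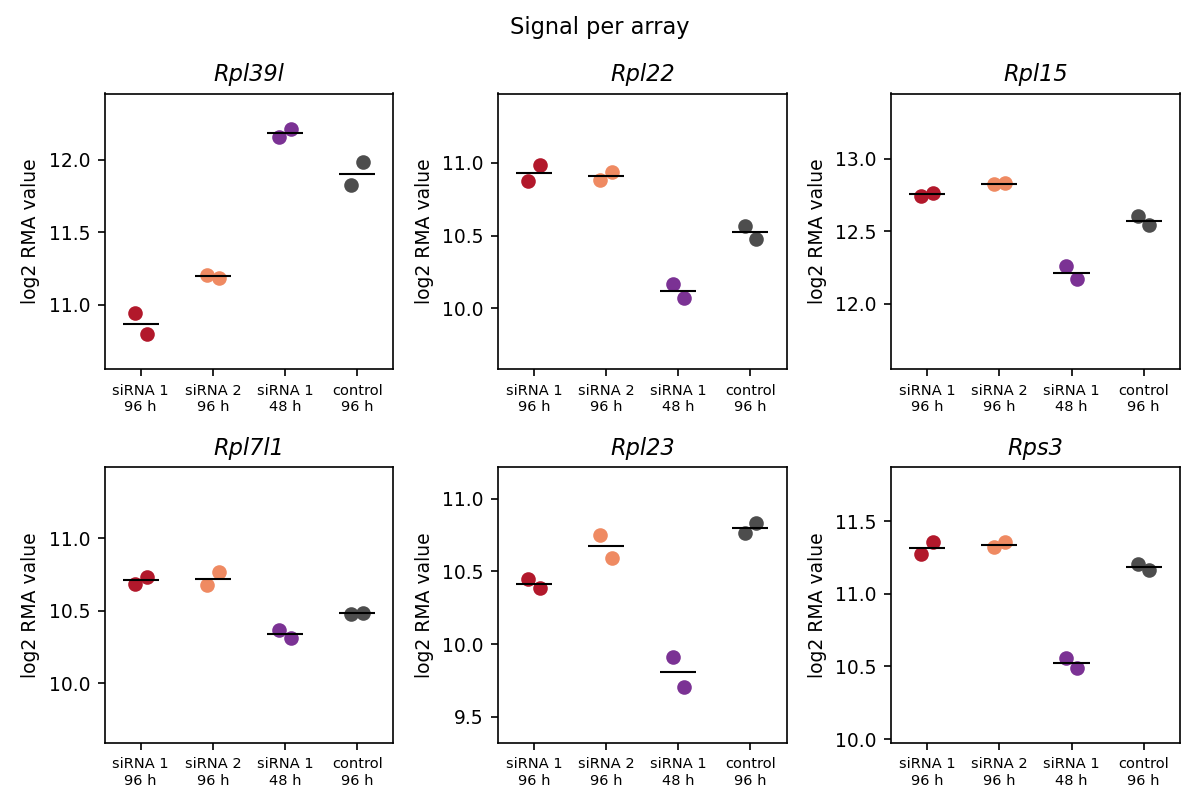
Log2 RMA value per array (vertical axis, the same span in each panel) of 6 members in the 4 groups (horizontal axis). Points are the 2 arrays of a group and the bar is their mean. Rpl39l runs opposite to the others at 48 h, where Rpl22, Rpl15, Rpl7l1, Rpl23 and Rps3 are at their lowest.

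Read duplex by duplex, siRNA 1 gave 4 called members at 96 h, where 22.8% of all genes were called, 11.6% higher and 11.2% lower. Rpl22 rose by 0.41 ± 0.080 (adjusted p = 0.00854, limma), and Rpl39l fell by 1.03 ± 0.086, which is 2.05-fold (0.000154), Rpl23 by 0.38 ± 0.096 (0.0232) and Rpsa by 0.26 ± 0.073 (0.0368). Rpl23, which binds Mdm2 when free of the ribosome, had 10.45 and 10.39 for siRNA 1 at 96 h against 10.76 and 10.84 for the control. Rpsa stood near the level of an absent transcript in both groups. The Rpl22 call needed siRNA 1 replicate 2 (adjusted p = 0.0625 when omitted) and control replicate 2 (0.0543), that of Rpl23 siRNA 1 replicates 1 (0.0665) and 2 (0.116) and control replicates 1 (0.0567) and 2 (0.103), and that of Rpsa siRNA 1 replicates 1 (0.126) and 2 (0.124), either siRNA 2 array (0.0533 each) and control replicates 1 (0.126) and 2 (0.118).

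With siRNA 2 at 96 h 3 members were called, against 15.7% of all genes, 8.01% higher and 7.66% lower. Rpl39l fell by 0.71 ± 0.086 (1.63-fold, adjusted p = 0.00163, limma), and Rpl22 rose by 0.38 ± 0.080 (0.0163) and Rpl15 by 0.25 ± 0.073 (0.0499). Rpl23 had 10.75 and 10.59 for siRNA 2, a difference of -0.13 ± 0.096 (0.424). Omitting siRNA 2 replicate 1 (0.0515) or 2 (0.0862) or control replicate 2 (0.0892) ended the call of Rpl22. That of Rpl15 ended on omitting any 1 of the 8 arrays: siRNA 2 replicate 1 (0.139) or 2 (0.162), siRNA 1 of 96 h (0.0749 each), siRNA 1 of 48 h (0.0631 each) or control replicate 1 (0.111) or 2 (0.203). Rps6 had a difference of 0.29 ± 0.090 (0.0629), which passed without either array of 48 h (0.0488).

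The duplexes were also set against each other directly at 96 h. Of the 24 members 0 passed (limma), and 0.0197% of all genes were called. With an intensity trend and robust variance 1 member passed, Rpl39l. At an unadjusted p under 0.05 there were 4 of the 24 members, against 1625 of all 15267 genes. These 4 were Rpl39l, with siRNA 1 minus siRNA 2 at -0.33 ± 0.086 (adjusted p = 0.243), Rpsa at -0.30 ± 0.073 (0.219), Rpl23 at -0.26 ± 0.096 (0.407) and Rpl31 at -0.24 ± 0.085 (0.388). For each of them both siRNA 1 arrays lay below both siRNA 2 arrays. The calls of Rpl23 and Rpsa with siRNA 1, and of Rpl15 with siRNA 2, are therefore not shown to be particular to a duplex.

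The time after transfection was followed with siRNA 1, at 96 h against 48 h. Here 11 of the 24 members were higher at 96 h, 1 was lower, Rpl39l, and 12 did not pass (limma), with a median log2 difference of 0.20. Over all genes 37.6% were called, 19.2% higher and 18.5% lower, and the median was -0.032. In the small subunit 5 of 7 genes were higher, in the large subunit 5 of 12, and of the paralogues Rpl7l1 was higher and Rpl39l lower. Without a control at 48 h, the effect of time, of the siRNA over time and of the RNA or array run of the 48 h group cannot be told apart.

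The small-subunit genes that differed were Rps3, Rps6, Rps9, Rps15 and Rps15a. Rps3, which sits at the entry of the mRNA channel and also acts in DNA repair, had 11.27 and 11.36 for siRNA 1 at 96 h, 10.56 and 10.49 for siRNA 1 at 48 h, and 11.21 and 11.17 for the control at 96 h. The 48 h arrays alone were low, and Rps3 was 0.79 ± 0.074 higher at 96 h (1.73-fold, adjusted p = 0.000156, limma). Rps15a was dim and had 6.93 and 6.54 for siRNA 1 at 96 h, 5.80 and 5.37 for siRNA 1 at 48 h, and 6.48 and 6.38 for the control. It was 1.15 ± 0.18 higher at 96 h (2.22-fold, 0.00168). Rps6, the target of S6 kinase, had 10.26 and 10.17 for siRNA 1 at 96 h, 9.75 and 9.53 for siRNA 1 at 48 h, and 10.09 and 10.08 for the control, a rise at 96 h of 0.58 ± 0.090 (1.49-fold, 0.00173). In all of these the arrays of 48 h lay below every array of 96 h. Rps15 was higher by 0.37 ± 0.071 (0.00481), and Rps9 by 0.26 ± 0.071 (0.0213), a call lost without siRNA 1 of 96 h replicate 1 (0.0566) or 2 (0.102) or siRNA 1 of 48 h replicate 1 (0.0945) or 2 (0.0539).

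In the large subunit Rpl22, Rpl21, Rpl23, Rpl15 and Rpl14 were higher at 96 h. Rpl22 was higher by 0.81 ± 0.080 (1.76-fold, adjusted p = 0.000198, limma) and Rpl15 by 0.54 ± 0.073 (0.000861), from the signals given above. Rpl21 had 7.58 and 7.83 for siRNA 1 at 96 h against 7.02 and 7.02 at 48 h, and was 0.68 ± 0.096 higher (1.61-fold, 0.00106). Rpl23 had 10.45 and 10.39 at 96 h against 9.91 and 9.70 at 48 h, and was 0.61 ± 0.096 higher (1.53-fold, 0.00182). Rpl14 had 12.15 and 12.11 at 96 h against 11.79 and 11.62 at 48 h, and was 0.43 ± 0.080 higher (0.00409). The times did not overlap in any of these genes. Rpl31 had a difference of 0.22 ± 0.085 (0.0750), which passed without siRNA 1 of 96 h replicate 2 (0.0484).

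The paralogues did not move as one. Rpl7l1 was 0.37 ± 0.073 higher at 96 h than at 48 h (1.29-fold, adjusted p = 0.00524, limma) and Rpl39l 1.31 ± 0.086 lower, which is 2.49-fold (3.56e-05). Rpl3l (-0.30 ± 0.15), Rps27l (0.11 ± 0.076) and Rps4l (0.075 ± 0.085) did not pass. Leaving out any single array kept the calls of 11 of the 12 called members, Rps9 being the exception.

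Of the other members none passed in any of the comparisons. Rplp2, an acidic protein of the stalk that recruits translation factors, had 14.63 and 14.60 for siRNA 1 at 96 h, 14.59 and 14.59 for siRNA 2, 14.55 and 14.55 for siRNA 1 at 48 h, and 14.71 and 14.68 for the control. The control arrays were the highest, and the difference with both siRNAs was -0.093 ± 0.059 (adjusted p = 0.295, limma). Rps14 had 14.02 and 13.96 for siRNA 1 at 96 h, 14.01 and 14.11 for siRNA 2, 14.15 and 14.16 for siRNA 1 at 48 h, and 14.20 and 14.21 for the control. It was lowest with siRNA 1 at 96 h, where it differed from the control by -0.22 ± 0.073 (0.0640). With both siRNAs it passed only where an intensity trend was fitted or dim genes were left out. Rps4l, a paralogue of Rps4x, had 13.64 and 13.79 for siRNA 1 at 96 h, 13.44 and 13.60 for siRNA 2, 13.63 and 13.64 for siRNA 1 at 48 h, and 13.62 and 13.62 for the control, and its siRNA groups lay on either side of the control at 96 h. Rpl17 lay between 6.91 and 7.15 on the 6 siRNA arrays, against 6.79 and 6.77 on the control arrays. For Rpl4, Rpl8, Rpl13a and Rpl26 the largest difference among the comparisons was 0.19 ± 0.078, that of Rpl13a between 96 h and 48 h (adjusted p = 0.0936).

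**Figure D3:**
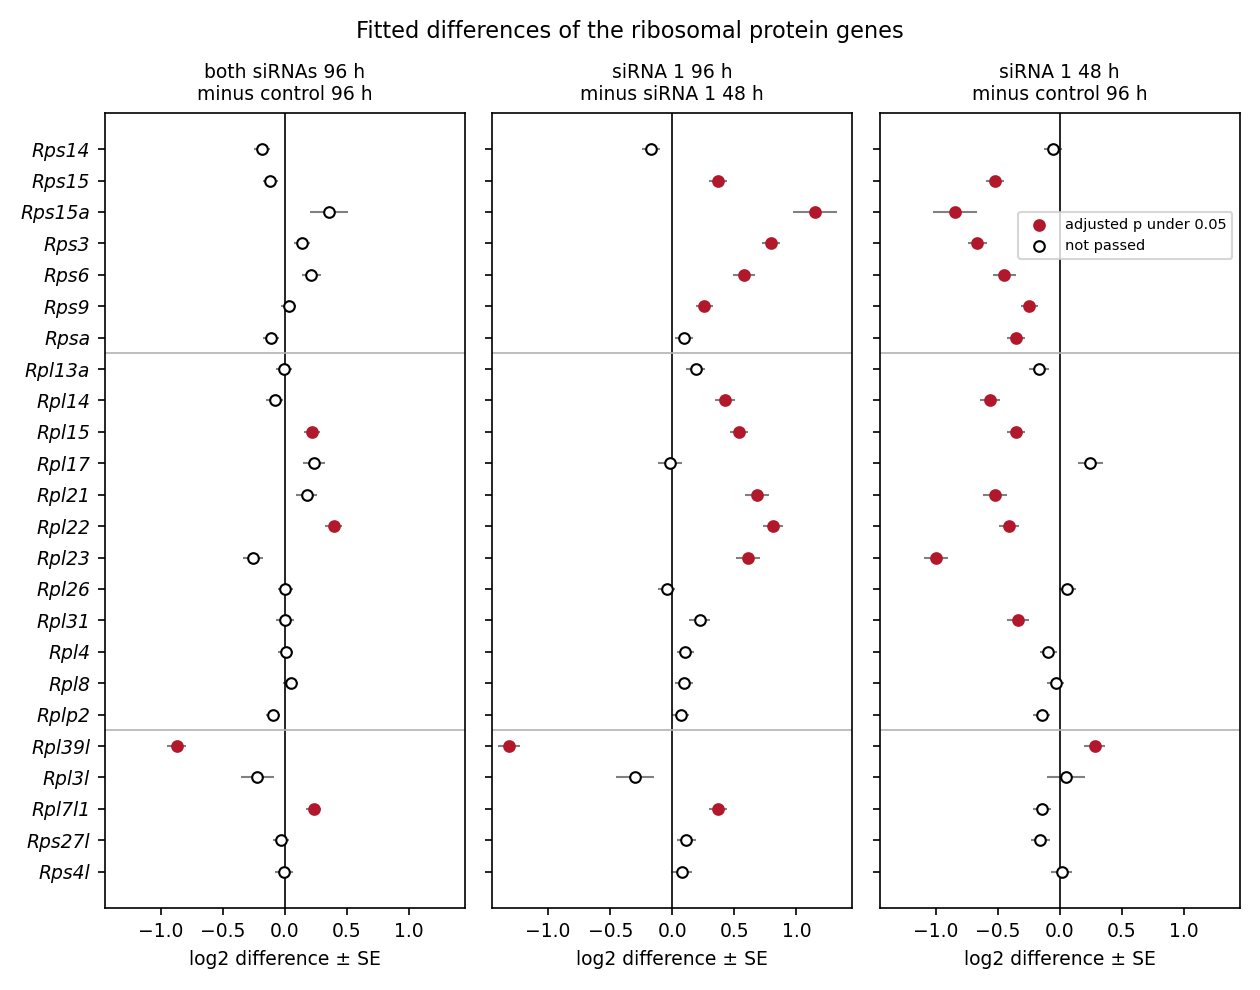
Fitted log2 difference (horizontal axis, ± SE of the fit) of each member in 3 comparisons: both Tet1 siRNAs against control, time with siRNA 1 (96 h against 48 h), and siRNA 1 of 48 h against the control of 96 h. Filled points passed at an adjusted p under 0.05 (4, 12 and 13 members from left to right). The middle and right panels share the arrays of 48 h.

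At 48 h siRNA 1 was set against the control of 96 h, so that siRNA and time cannot be told apart, and this comparison shares the arrays of 48 h with the one before. Of the 24 members 12 were lower, 1 was higher, Rpl39l, and 11 did not pass (limma), with a median of -0.21. Over all genes 35.4% were called, 18.4% lower and 17.1% higher, with a median of 0.0031. In the small subunit 6 of 7 genes were lower, all but Rps14, and in the large subunit 6 of 12. The 6 of the small subunit include Rpsa, whose signal lay near that of an absent transcript in both groups. Its call is therefore not read as a change of the transcript.

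Rpl23 fell most, by 0.99 ± 0.096 (1.99-fold, adjusted p = 0.000277, limma), with 9.91 and 9.70 for siRNA 1 at 48 h against 10.76 and 10.84 for the control. Rps15a fell by 0.84 ± 0.18 (0.00779), Rps3 by 0.66 ± 0.074 (0.000488), Rpl14, with 12.25 and 12.27 in the control, by 0.56 ± 0.080 (0.00135), Rps15 by 0.52 ± 0.071 (0.00113) and Rpl21 by 0.52 ± 0.096 (0.00428). Rps15 had 13.95 and 13.89 for siRNA 1 at 48 h against 14.42 and 14.47 for the control, the largest fall among the bright members. The falls of Rps6 (0.45 ± 0.090), Rpl22 (0.41 ± 0.080), Rpl15 (0.36 ± 0.073), Rpl31 (0.34 ± 0.085) and Rps9 (0.25 ± 0.071) had adjusted p values from 0.00574 to 0.0276. In each of these genes both arrays of 48 h lay below both control arrays.

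Rpl39l was the member that rose, with 12.16 and 12.21 for siRNA 1 at 48 h against 11.83 and 11.98 for the control, by 0.28 ± 0.086 (1.21-fold, adjusted p = 0.0355, limma). This call ended on omitting siRNA 1 of 48 h replicate 1 (0.0844) or 2 (0.150), siRNA 2 replicate 1 or 2 (0.0501 each) or control replicate 1 (0.186). Among the falls, the call of Rpl31 ended without siRNA 1 of 48 h replicate 2 (0.0931) or control replicate 1 (0.0526) or 2 (0.0714), that of Rps9 without siRNA 1 of 48 h replicate 1 (0.115) or 2 (0.0661) or control replicate 1 (0.0888) or 2 (0.106), and that of Rps15a without siRNA 1 of 48 h replicate 2 (0.0611).

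The lung markers moved with the same arrays. Between siRNA 1 at 96 h and at 48 h 10 of 13 were higher at 96 h (76.9%, against 19.2% of all genes), with a median of 1.51. Between siRNA 1 at 48 h and the control 11 of 13 were lower (84.6%, against 18.4%), with a median of -1.72. Muscle markers (6) had means from 5.17 to 5.43 on all arrays, but with both siRNAs Actn3 fell by 1.29 and Acta1 rose by 0.54. Means of 9 fibroblast and feeder markers were 5.45 and 5.30 for siRNA 1 at 96 h, 5.55 and 5.28 for siRNA 2, 5.00 and 4.95 for siRNA 1 at 48 h, and 5.43 and 5.61 for the control, and 5 of the 9 were higher and 1 lower at 96 h than at 48 h, Col3a1 by 1.97 higher. Of 6 blood and endothelium markers 4 were higher and 1 lower at 96 h than at 48 h. The share called was 83.3% for these and 66.7% for the fibroblast and feeder markers, against 37.6% of all genes. The part of the lung, muscle, fibroblast and blood transcripts in the difference of the ribosomal protein genes between times was not tested. Within 96 h, where lung transcripts were on every array, 2 of 13 lung markers were called lower with both siRNAs than with the control. That is 15.4%, against 12.2% of all genes called lower. The 2 were Napsa and Bpifa1, and the call of Bpifa1 was lost without either control array.

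By classes of signal, which were set after the values had been seen, the share of members called was highest in the middle class. Of the 10 members with a mean above 13, 0 were called with both siRNAs against control (6.73% of the 104 genes in that class), 2 at 96 h against 48 h (27.9%), Rps9 and Rps15, and the same 2 at 48 h against control (23.1%). Of the 9 members between 9 and 13, 4 were called with both siRNAs against control (28.7% of the 3335 genes in that class), 8 at 96 h against 48 h (49.8%) and 8 at 48 h against control (46.8%). At 96 h against 48 h 7 of these 9 were higher and 1 lower, against 1137 and 524 of the 3335 genes. At 48 h against control 7 of the 9 were lower and 1 higher, against 1008 and 553 of the 3335. Of the 5 members at 9 or below, 0 were called with both siRNAs against control (23.1% of the 11828 genes in that class), 2 at 96 h against 48 h (34.3%) and 3 at 48 h against control (32.3%). Over all genes of the bright class the median size of the difference between 96 h and 48 h was 0.12 on the log2 scale, against 0.24 in the middle class. Array signals level off near the top of their range, and how far this narrowed the differences of the bright members was not tested.

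**Figure D4:**
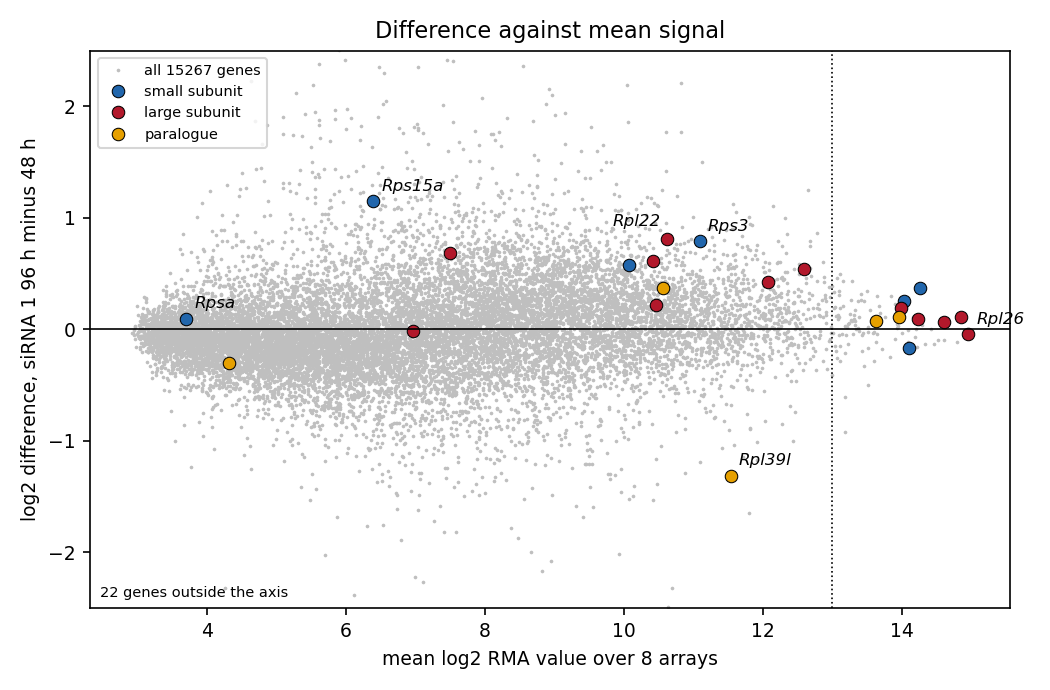
Log2 difference between siRNA 1 at 96 h and at 48 h (vertical axis) against the mean log2 RMA value over the 8 arrays (horizontal axis), for all 15267 genes in grey and the members in colour by class; 22 genes lie outside the vertical axis, and the dotted line marks a mean of 13. Most members right of the line lie close to 0, Rps15a and Rpl22 are among the highest members, and Rpl39l is the lowest.

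Genes that build ribosomes were read beside their products. Of 53 measured ribosome biogenesis genes, 30 were higher for siRNA 1 at 96 h than at 48 h and 2 lower (limma), a share of 56.6% higher against 19.2% of all genes, with a median of 0.30. Among all 3335 genes with a mean signal between 9 and 13, 1137 were higher and 524 lower. None of the lists was matched for signal to the genes it is set against. Ftsj3, a nucleolar methyltransferase of pre-ribosomal particles, was 1.5 ± 0.091 higher (11.62 against 10.12, adjusted p = 2.49e-05), Tsr1, an assembly factor of the small subunit, 0.75 ± 0.074 higher and Nop16 0.68 ± 0.070 higher. The count higher was 19 without siRNA 1 of 96 h replicate 2 and 18 without siRNA 1 of 48 h replicate 2. Of 12 measured genes of RNA polymerase I, which transcribes ribosomal RNA, 5 were higher and 0 lower (41.7% called), among them Polr1c (0.58 ± 0.074) and the subunit gene Polr1a (0.94 ± 0.14).

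Of 71 measured genes of the mitochondrial ribosome, 27 were higher at 96 h than at 48 h and 0 lower (limma), with a median of 0.19. The share higher was 38%, against 19.2% of all genes, and the share lower 0%, against 18.5%. These shares of all genes are not matched for signal. In both directions together 38% were called, against 37.6% of all genes. Mrpl9 (1.02 ± 0.093) and Mrpl33 (0.80 ± 0.088) had the smallest adjusted p. Of 45 measured Eif genes 12 were higher and 3 lower, 26.7% and 6.67%. They were taken by symbol and include the eIF4E-binding Eif4ebp2 and Eif4ebp3 beside factors of translation initiation. The called share of 33.3% was below the 37.6% of all genes, while the share higher was above their 19.2%. Eif1b was 0.91 ± 0.091 higher and Eif2s2, a subunit of eIF2, 0.82 ± 0.072 lower. Of 16 further TOP and elongation genes 4 were measured. Eef1d was 0.53 ± 0.072 higher (adjusted p = 0.000874), and Eef2 (-0.045), Eef1b2 (-0.10) and Nop53 (-0.20) did not pass. Eef1a1, the main elongation factor that delivers aminoacyl-tRNA, was not analysed here.

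**Figure D5:**
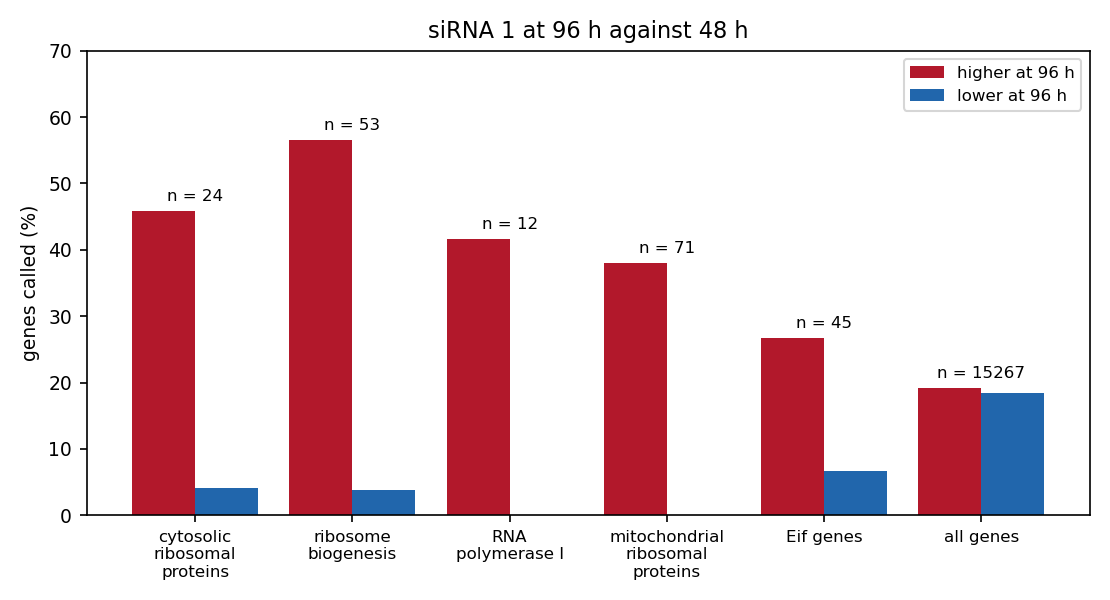
Percent of measured genes called higher (red) or lower (blue) for siRNA 1 at 96 h against 48 h (vertical axis, from 0) in 5 gene groups and in all genes (horizontal axis, n is the number measured). The cytosolic ribosomal protein genes have 45.8% higher and 4.17% lower, and all genes 19.2% and 18.5%. The gene groups and all genes are not matched for signal.

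For siRNA 1 at 48 h against the control of 96 h, 35.4% of all genes were called, 18.4% lower and 17.1% higher. Of the 53 biogenesis genes 22 were lower and 3 higher (47.2% called, limma). Of the 12 RNA polymerase I genes 5 were lower and 0 higher (41.7%), and of the 71 mitochondrial ribosomal protein genes 26 were lower and 2 higher (39.4%). Wdr12, which acts in the maturation of the large subunit, fell by 1.40 ± 0.14 (7.26 against 8.66), Ubtf, the factor that opens ribosomal DNA to RNA polymerase I, by 0.65 ± 0.084, and Mrpl33 by 0.89 ± 0.088. The count of lower biogenesis genes was 11 on omitting siRNA 1 of 48 h replicate 2 and 14 or 13 on omitting control replicate 1 or 2. That of higher ones was 1 on omitting any array of either group. Without siRNA 1 of 48 h replicate 2, 3 RNA polymerase I genes and 17 mitochondrial ribosomal protein genes were lower.

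With both siRNAs against control at 96 h, where 24.2% of all genes were called, 5 biogenesis genes rose and 0 fell (9.43% called), 0 RNA polymerase I genes rose and 1 fell, Ubtf (8.33%), and 4 mitochondrial ribosomal protein genes rose and 3 fell (9.86%; limma). Utp4, a factor of the small-subunit processome, rose by 0.31 ± 0.061 (12.38 against 12.06, adjusted p = 0.00731) and Ftsj3 by 0.34 ± 0.079 (0.0154), and Ubtf fell by 0.30 ± 0.073 (0.0204). Without control replicate 2, 0 biogenesis and 0 mitochondrial ribosomal protein genes were called, and the adjusted p was 0.0621 for Utp4, 0.0758 for Ftsj3 and 0.156 for Ubtf. Without control replicate 1, 2 biogenesis genes rose, 0 mitochondrial ribosomal protein genes rose and 1 fell, and Ftsj3 had 0.0743. Of the Eif genes 5 rose and 3 fell (17.8%), of which 0 were called without control replicate 2. Of the 4 TOP and elongation genes 0 passed. At an unadjusted p under 0.05 there were 0 of these 4, against 5520 of all 15267 genes. Ubtf also lost its call without siRNA 1 replicate 1 (0.0535).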

How the data were processed

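RNA of the ES cells was labelled by in vitro transcription and hybridised to 8 Affymetrix arrays, per the labels' protocols. The deposited values are on the log2 scale, 1 per probe set and array, made with RMA per the submitters' processing notes, which give no version. They lay between 2.60 and 15.3. Of 16556 probe sets 64 were controls, 15270 had 1 gene symbol in the platform annotation and 1222 were not listed there and stay unnamed. For 3 genes with several probe sets the brightest was used, which left 15267 genes. All columns were matched by name, and 0 belonged to other samples.

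Tests used limma 3.58.1 in R 4.3.3: a group-means model over all arrays (4 residual and 4.13 prior degrees of freedom, no replicate block), 6 comparisons, two-sided p-values adjusted by Benjamini-Hochberg over all 15267 genes, and calls under 0.05. The script was checked on simulated data. Values after ± are SE. The labels do not state that replicate arrays came from separate cultures, so the p-values cover a spread that may be technical only. Array number limits the precision, and scanner signals and run dates were not used here. The replicate numbers do not pair the arrays: deviations of replicate 1 correlated between groups from -0.056 to 0.14.

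The members, the gene lists, the markers and the rule for named genes were chosen with earlier results of these data known. By that rule the text may give every member, with array values for the 4 largest called rises and falls per comparison whose arrays do not overlap and for a panel of paralogues, Mdm2-binding and stalk genes, and up to 3 called genes per list. Other settings were a replicate block, leaving out each array, the 96 h arrays alone, an intensity trend with robust variance, quantile normalization, median centring, leaving out dim genes, averaging probe sets, the lung marker mean as covariate, and a fold of 1.2. Start-region sequences are RefSeq's, on GRCm38.p6.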

Additional observations from a re-analysis of the deposited data

Results flagged for a closer look

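For 12 members siRNA 1 differed from the control of 96 h otherwise on the arrays of 96 h than on those of 48 h. This was read from the test of the difference itself (limma, adjusted over all genes). Both differences use the same control arrays of 96 h, so this test is that of siRNA 1 at 96 h against 48 h. It called 50% of members and 37.6% of all genes. Without a control at 48 h, siRNA and time cannot be told apart in the difference at 48 h. Opposite signs are therefore not shown to be a turn in the response to the siRNA. In 8 of the 12 both siRNA 1 arrays of 96 h lay on one side of the control mean and both of 48 h on the other. Of these, 2, Rpl39l and Rpl22, were called at both times in opposite directions. The share of all genes with arrays on opposite sides was not counted, so the 8 are not read as particular to the members. A side of the mean is a lenient measure: Rpl21 on siRNA 1 of 96 h replicate 1 lay 0.038 above it, and control replicate 1 lay 0.043 above it. Rpl39l differed from the control by -1.03 at 96 h and by 0.28 at 48 h on the log2 scale. Its difference at 96 h minus that at 48 h was -1.31 (adjusted p = 3.56e-05, limma). Rpl22 differed by 0.41 at 96 h and by -0.41 at 48 h, and the difference at 96 h minus that at 48 h was 0.81 (adjusted p = 0.000198, limma). In the other 6 with arrays on opposite sides, siRNA 1 at 96 h minus 48 h was 1.15 for Rps15a, 0.79 for Rps3 and 0.68 for Rpl21. It was 0.58 for Rps6, 0.54 for Rpl15 and 0.37 for Rpl7l1. For the remaining members it was 0.61 for Rpl23, 0.43 for Rpl14, 0.37 for Rps15 and 0.26 for Rps9.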

How the results depend on the processing

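The 4 members called with both siRNAs against control became 9 with an intensity trend and robust variance, 8 of 21 without the dim genes, and 2 with the lung marker mean as covariate or with a minimum fold of 1.2. With siRNA 1 at 96 h the count moved to 7 with the trend and 2 with the lung covariate, with siRNA 2 to 6 with the trend and 5 without the dim genes, and between the duplexes to 1 with the trend, in place of 4, 3 and 0. Leaving out each array gave 2 to 4 members with both siRNAs, 1 to 4 with siRNA 1, 1 to 3 with siRNA 2, 0 between the duplexes, 11 to 12 at 96 h against 48 h and 9 to 13 at 48 h against control. With the replicate number as a block, which the data do not bear out as a pairing, the counts in the same order were 3, 3, 2, 0, 12 and 12. Over 36 called member values and 522 alternative fits, 456 kept direction and call, 66 kept direction without the call and 0 turned. Part of this was fixed in advance. The block, the 96 h arrays alone, the trend and leaving out dim genes keep each difference, so direction could not turn there. The same holds on omitting an array outside the compared groups. Each member has 1 probe set, so averaging probe sets repeated the main difference. Beyond the omitted arrays and the values given above, further calls ended. That of Rpsa with siRNA 1 ended with the trend (adjusted p = 0.0946, limma), quantile normalization (0.0640) and the lung covariate (0.0709). That of Rpl23 with siRNA 1 ended with the lung covariate (0.0569). The Rpl15 call with siRNA 2 ended with the 96 h arrays alone (0.0631), quantile normalization (0.0693), median centring (0.0519) and the lung covariate (0.102), and that of Rps9 at 48 h against control with quantile normalization (0.0932). The block ended the calls of Rpl15 with both siRNAs (0.0538) and with siRNA 2 (0.0707), of Rpsa with siRNA 1 (0.0538) and of Rpl39l at 48 h against control (0.0529). The causes were not tested. No planned setting was left out.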

Other observations

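Factors that act on ribosomal protein promoters did not share a direction. Of 10 measured, 3 rose and 2 fell with both siRNAs against control at 96 h (50% called, against 24.2% of all genes, limma). Myc, a driver of ribosome production, had 10.24 and 10.23 for siRNA 1 at 96 h, 10.11 and 10.08 for siRNA 2, 10.73 and 10.71 for siRNA 1 at 48 h, and 9.80 and 9.97 for the control, and Mycn, its relative, rose by 0.30 ± 0.073. Myc was highest on the arrays of 48 h, by 0.84 ± 0.080 over the control of 96 h (adjusted p = 0.000260, limma). There siRNA and time cannot be told apart, and a link between Myc and the ribosomal protein genes was not tested. For siRNA 1 at 96 h against 48 h 2 of the 10 factors were higher and 3 lower (50% called, against 37.6% of all genes). At 48 h against control 2 of the factors were higher and 3 lower (50%, against 35.4% of all genes). The rise count at 96 h was 0 without control replicate 1, 1 without control replicate 2 or replicate 2 of either siRNA, and 1 factor fell whichever array was left out. Both calls at 96 h were lost without control replicate 1 (0.157 for Myc and 0.0675 for Mycn), and that of Mycn also without control replicate 2 (0.115), siRNA 1 replicate 2 (0.0518) or siRNA 2 replicate 2 (0.0511). Zbtb7a fell by 0.64 ± 0.12 with both siRNAs (adjusted p = 0.00735) and by 1.00 ± 0.14 for siRNA 1 at 48 h (0.00135).

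In the mTOR list, which governs TOP translation, 2 of 15 genes fell and 0 rose with both siRNAs (13.3% called, below the share of all genes). Rragc, a GTPase that relays amino acids to mTOR, fell by 0.38 ± 0.060 (adjusted p = 0.00288, limma) and, for siRNA 1 at 48 h against control, by 0.90 ± 0.069 (0.000136). Mtor (-0.086, 0.385) and Larp1 (0.051, 0.639) did not pass. The list's fall count shrank without control replicate 2 or siRNA 2 replicate 1. For siRNA 1 at 96 h against 48 h 4 of its genes were higher and 1 lower (33.3% called, against 37.6% of all genes). At 48 h against control 3 of its genes were higher and 2 lower (33.3%, against 35.4% of all genes). Of 7 genes of p53 surveillance, the pathway that ribosomal stress can trigger, 5 rose and 1 fell with both siRNAs (85.7% called, against 24.2% of all genes). Pmaip1 rose by 2.00 ± 0.066, Cdkn1a by 0.64 ± 0.071 and Mdm2 by 0.57 ± 0.065. Those counts at 96 h were the same whichever array was left out. For siRNA 1 at 96 h against 48 h 3 were higher and 0 lower (42.9% called, against 37.6% of all genes). At 48 h against control 4 were higher and 2 lower (85.7%, against 35.4% of all genes). There the count lower shrank whichever array was left out, and the count higher on omitting certain arrays.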
